A study of Mus musculus with 6 samples.

Results

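The genes described here are the effectors and regulators of the Hippo pathway: the coactivator genes *Yap1* and *Wwtr1* (which encodes TAZ), the TEAD transcription factor genes *Tead1*, *Tead2* and *Tead3*, the kinase genes *Lats1* and *Lats2*, and *Ankrd1*, *Amotl2* and *Ajuba*. They were chosen by symbol as 10 genes and matched to Ensembl gene IDs, and 9 of the 10 had a row among the 32493 genes of the count table. The expression of *Ankrd1* was not analysed here. The RNA came from neural stem cells (NSCs) of E14.5 mouse embryos, taken from the lateral ventricles and grown in culture for 3 generations. In all groups both miR-151 alleles were floxed. The cko embryos also had Emx1-IRES-Cre, which drives recombination in cells of the dorsal telencephalon. The ctrl embryos (wt in the sample labels) had no Cre. The labels do not say whether tissue outside the territory of Emx1 was left out, so a cko culture may hold cells that never had active Cre. The comparison was made between 3 cko and 2 ctrl libraries, because the column of ctrl replicate 2 equalled the mean of ctrl libraries 1 and 3, rounded up, in 32493 of 32493 genes and carried no counts of its own. The study describes the embryos of both genotypes as littermates. The labels do not say whether the libraries came from separate embryos, so the p-values measure the spread between these libraries, which may be technical.

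In the Hippo pathway, the kinases MST1 and MST2 activate LATS1 and LATS2, and the LATS kinases phosphorylate YAP and TAZ, which are then held in the cytoplasm or degraded. Unphosphorylated YAP and TAZ enter the nucleus and activate transcription through the TEAD factors, which bind DNA. In the developing brain YAP and TAZ are known from radial glia, ependymal cells and astrocytes, and are mostly absent from neurons. The pathway acts largely on protein phosphorylation and location, which RNA-seq does not measure, so the values below are mRNA levels only.

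In cko NSCs, both coactivator genes, *Tead1*, *Tead3* and *Ajuba* fell, while *Tead2*, both LATS kinase genes and *Amotl2* did not pass the test. Of the 9 genes, 5 passed as lower in cko at an adjusted p under 0.05 (edgeR, Benjamini-Hochberg over 16710 tested genes) and 0 were higher. In the same test 8.57% of all tested genes were lower and 7.86% were higher. At an unadjusted p under 0.05 the counts were 7 lower and 0 higher, a cut whose share over all tested genes was not taken. DESeq2 called 5 lower and 0 higher at an adjusted p under 0.05, beside 1703 lower and 1581 higher of all 16710 tested genes. The median log2 fold change of the 9 genes was -0.48, beside a median of -0.00264 over all tested genes. Every cko library lay below both ctrl libraries in 8 of the 9 genes, a pattern found in 24.3% of all tested genes, and every cko library lay above both in 0 of the 9, where 25.4% of all tested genes did so. By direction alone 8 of the 9 were lower, beside 50.3% of all tested genes. At the threshold used in the study, a log2 fold change beyond 0.9 in size and an unadjusted p under 0.01, *Ajuba* alone of the 9 was called in edgeR, where 4.17% of all tested genes were called lower and 2.39% higher. The study used this threshold with DESeq2. In the DESeq2 fit made here, on the 5 libraries without ctrl replicate 2, *Ajuba* and *Wwtr1* passed it. In that fit 4.21% of all tested genes were lower and 2.47% higher, which are not the counts of the study. *Wwtr1* lay at the edge of the threshold, with a log2 fold change of -0.897 in edgeR and -0.901 in DESeq2. When 1 cko library was left out, the number called lower was 3 without replicate 1, 2 without replicate 2 and 2 without replicate 3. In the same fits 907 of 16481, 416 of 16284 and 457 of 16306 tested genes were called lower. A fit without a ctrl library holds a single ctrl library, so that the spread comes from the cko libraries and the lone library is assumed to vary like them. As these are bulk samples, fewer cells of a type and less RNA per cell cannot be told apart.

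**Figure D1:**
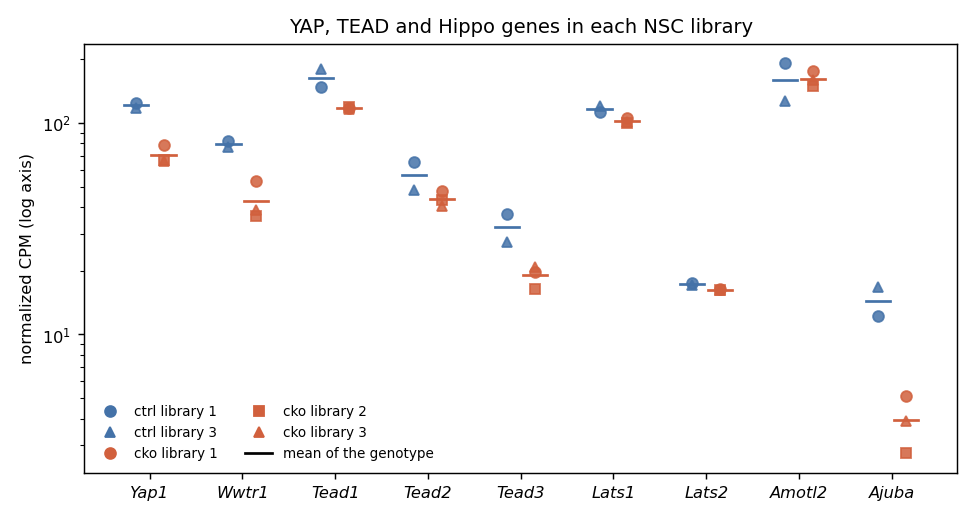
Normalized CPM (read counts scaled to library size, log axis) of the 9 genes in each of the 2 ctrl and 3 cko libraries; points are libraries and bars are the means of the genotypes. The cko libraries sit below both ctrl libraries in 8 of the 9 genes, and only in *Amotl2* do the genotypes overlap.

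The promoters of these genes were read for the TEAD motif, since several of them are known as targets of the factors they encode or act with. The letters GGAATG, or CATTCC for the opposite strand, were searched in RefSeq windows of GRCm38.p6 that reach from 250 bases before to 50 bases after each annotated start. Windows were found for 9 of the 10 genes, *Ankrd1* included and *Tead1* not. The motif was present in 7 of the 9, where 16.6% of the 27025 genes with a window (and 14.7% of 32851 windows) held it. It was absent from the windows of *Tead2* and *Lats1*. In the target signature described below, 7 of the 15 genes with a window held it, a count that shares *Ankrd1*, *Amotl2* and *Lats2* with the former, and among the other Hippo regulators 12 of 47 did. A match of 6 letters is a description of the sequence and was not tested for binding, and RNA levels do not show which of these matches is used. Of the signature genes that fell, *Axl*, *Crim1* and *Ptpn14* also hold the motif but are not printed. No match was found for *F3*, *Arhgef17* or *Tgfb2*, which fell too and may lack a window. Windows of 30 bases around 1 match are printed for each of the 7 genes and for *Ccn1*. These windows set *Yap1*, *Wwtr1*, *Tead3*, *Ajuba* and *Ccn1*, which fell, beside *Lats2* and *Amotl2*, which hold the same letters and were not called. The printed windows include *Ankrd1*, whose expression was not analysed. They lie at chr9:8004720-8004749 (*Yap1*), chr3:57576029-57576058 (*Wwtr1*), chr17:28350970-28350999 (*Tead3*), chr14:57746102-57746131 (*Lats2*), chr19:36119950-36119979 (*Ankrd1*), chr14:54577830-54577859 (*Ajuba*) and chr3:145650071-145650100 (*Ccn1*), all on the minus strand, and at chr9:102717727-102717756 (*Amotl2*) on the plus strand. The windows run 5′ to 3′ on the strand of the gene, with the motif in capitals.
Yap1: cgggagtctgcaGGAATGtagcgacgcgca
Wwtr1: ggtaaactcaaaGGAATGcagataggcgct
Tead3: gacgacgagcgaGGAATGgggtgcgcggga
Lats2: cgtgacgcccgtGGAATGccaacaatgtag
Ankrd1: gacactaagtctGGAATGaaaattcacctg
Amotl2: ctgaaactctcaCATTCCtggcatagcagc
Ajuba: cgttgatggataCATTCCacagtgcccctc
Ccn1: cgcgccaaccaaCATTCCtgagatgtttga

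**Figure D2:**
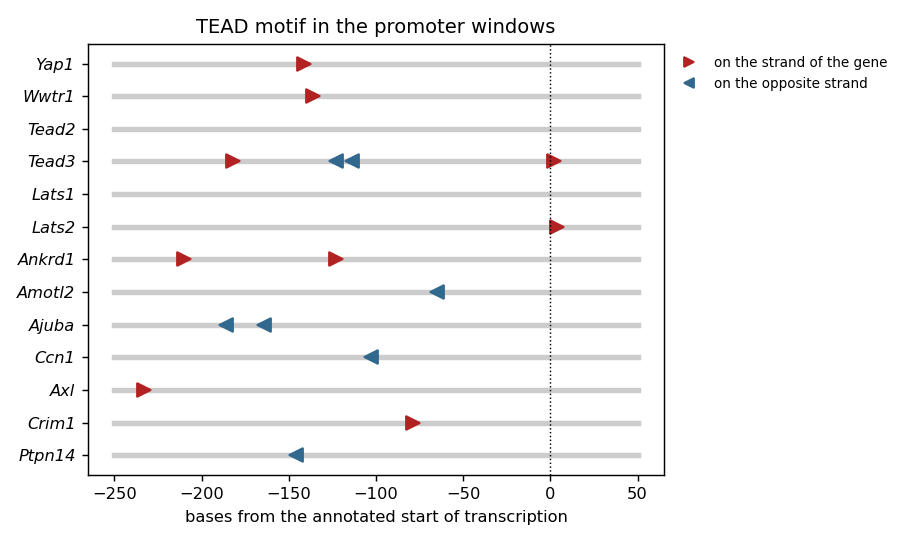
Positions of the TEAD motif in the promoter windows of the 9 genes with a window and of 4 further target genes, in bases from the annotated start. The 4 were drawn because their windows hold the motif, and signature genes without a match are not drawn. Arrowheads show the strand, and a match shared by several starts is placed from 1 of them. *Tead3* held 4 matches, which come from windows of different starts and are drawn on 1 line. *Ajuba* and *Ankrd1* held 2 each, and *Tead2* and *Lats1* none.

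*Yap1* (ENSMUSG00000053110, GRCm38 chromosome 9, 7931999 to 8004596, minus strand) encodes the coactivator YAP. Its normalized CPM (counts scaled to library size) was 125 in ctrl library 1 and 117 in ctrl library 3, and 78.2, 66.8 and 66.0 in cko libraries 1, 2 and 3. Both ctrl libraries were thus above all cko libraries, and cko library 1 was the highest of the 3. The means were 121 ± 5.22 (SD, n = 2) and 70.3 ± 6.83 (SD, n = 3), and the fitted log2 fold change was -0.78 with a standard error of 0.095 (edgeR adjusted p = 0.00319). The fitted level in cko NSCs was 58.1% of that in ctrl. *Yap1* was called in all 11 alternative fits, with log2 fold changes from -0.87 to -0.75. *Wwtr1* (ENSMUSG00000027803, chromosome 3, 57455649 to 57575910, minus strand) encodes TAZ, the paralogue of YAP. Ctrl libraries had 81.8 and 76.8 normalized CPM of it, and cko libraries 53.0, 36.3 and 38.8. The genotypes did not overlap, and cko library 1 again lay above the other two. With means of 79.3 ± 3.57 (SD, n = 2) in ctrl and 42.7 ± 9.002 (SD, n = 3) in cko NSCs, the log2 fold change was -0.90 and its standard error 0.16 (edgeR adjusted p = 0.0106). Without cko replicate 2 its adjusted p was 0.0509 (log2 fold change -0.80), and without cko replicate 3 it was 0.0606 (-0.84), both in edgeR.

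Levels can be compared between genes only per length, so normalized CPM were divided by the length of the annotated exons in kb. On this scale *Wwtr1* stood at 16.6 ± 0.747 (SD, n = 2) and *Yap1* at 13.1 ± 0.564 (SD, n = 2) CPM per kb in ctrl NSCs. In cko NSCs they stood at 8.93 ± 1.88 and 7.60 ± 0.738 (SD, n = 3), values whose spreads overlap. The *Wwtr1* share of the summed level of both genes was 56.0% and 55.9% in the ctrl libraries and 56.8%, 51.3% and 53.3% in the cko libraries. The ctrl values lay within the range of the cko values, so that the balance of the 2 coactivator mRNAs did not separate the genotypes while both levels fell. The order of the 2 genes depends on the length used. With the longest annotated transcript as the length, the *Wwtr1* share was 42.4% in ctrl and 40.3% in cko NSCs.

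The TEAD factors carry the DNA-binding part of the complex. *Tead1* (ENSMUSG00000055320, chromosome 7, 112679318 to 112906807, plus strand) stood at 148 and 179 normalized CPM in ctrl and at 117, 119 and 116 in cko NSCs. The 3 cko libraries lay close together and below both ctrl libraries. From 163 ± 22.4 (SD, n = 2) the mean fell to 118 ± 1.31 (SD, n = 3), which gave a log2 fold change of -0.48 with a standard error of 0.093 (edgeR adjusted p = 0.0164). Leaving out cko replicate 1, 2 or 3 raised its adjusted p to 0.0560, 0.0800 and 0.0840 in edgeR. *Tead3* (ENSMUSG00000002249, chromosome 17, 28331671 to 28350817, minus strand) was measured at 37.2 and 27.3 normalized CPM in ctrl and at 19.8, 16.4 and 20.8 in cko libraries. The genotypes did not overlap, although the 2 ctrl libraries were further apart than the cko libraries. Its change of -0.76 on the log2 scale had a standard error of 0.16 (edgeR adjusted p = 0.0216), and without cko replicate 1, 2 or 3 the adjusted p was 0.0606, 0.0874 and 0.0674.

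*Tead2* (ENSMUSG00000030796, chromosome 7, 45215753 to 45233644, plus strand), a TEAD gene known for its early embryonic and neural expression, did not pass the test. Its levels were 65.6 and 48.2 normalized CPM in ctrl and 47.5, 43.0 and 40.6 in cko libraries. The lower ctrl library was close to the highest cko library, though the genotypes did not overlap. The log2 fold change was -0.38, with a 95% interval from -0.71 to -0.06 that is not adjusted for the number of genes, and an adjusted p of 0.103 in edgeR. The value moved with the ctrl library used, at -0.58 without ctrl replicate 3 (adjusted p = 0.00569) and -0.15 without ctrl replicate 1 (adjusted p = 0.371), both against a single ctrl library. The gene was also called with no filter on low counts (adjusted p = 0.00695) and with all 6 columns (adjusted p = 0.0379), all in edgeR. Whether *Tead2* changed less than *Tead1* or *Tead3* was not tested. *Tead4*, the fourth gene of the family, was barely detected, with 58 and 6 counts in the ctrl libraries and 17, 14 and 27 in the cko libraries. The fitted change of -0.65 (log2) had an interval from -2.35 to 1.04 (adjusted p = 0.580 in edgeR), and turned to 1.51 without ctrl replicate 1 (adjusted p = 0.180), while without ctrl replicate 3 it was -1.44 (adjusted p = 0.0462). In both fits the spread came from the cko libraries alone.

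Per length of exon, *Tead1* at 12.05 ± 1.65 and *Tead2* at 11.9 ± 2.57 CPM per kb (SD, n = 2) did not differ beyond their spread in ctrl NSCs, and *Tead3* followed at 4.80 ± 1.04. In cko NSCs the order was *Tead2* at 9.13 ± 0.730, *Tead1* at 8.66 ± 0.0963 and *Tead3* at 2.83 ± 0.345 (SD, n = 3), where the first 2 again overlapped. *Tead1* made up 35.3% and 48.2% of the summed TEAD level in the ctrl libraries and 39.7%, 43.1% and 41.8% in the cko libraries. The 2 ctrl libraries enclosed the cko values in this share. *Tead3* made up 17.96% and 14.8% in ctrl and 13.5%, 11.999% and 15.1% in cko libraries, and *Tead4* at most 2.28% in any library. The share of *Tead3* therefore also overlapped between the genotypes, by 1 cko library.

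**Figure D3:**
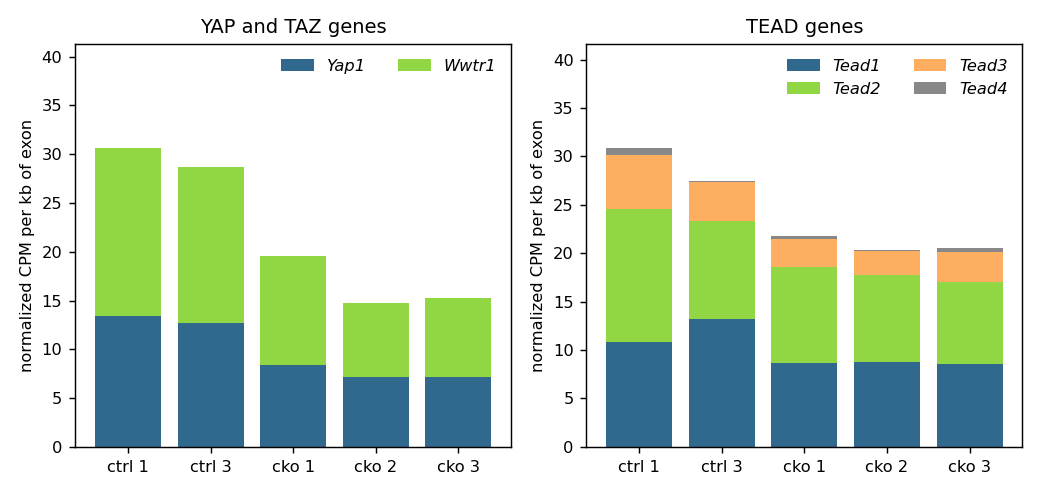
Levels of the coactivator genes (left) and the TEAD genes (right) in each library, in normalized CPM per kb of annotated exon, stacked by gene from 0. The stacks of the cko libraries are shorter than those of both ctrl libraries in each family, while the *Wwtr1* share stays between 51.3% and 56.8%.

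The LATS kinases phosphorylate YAP and TAZ and so restrain them. *Lats1* (ENSMUSG00000040021, chromosome 10, 7681214 to 7716460, plus strand) was measured at 113 and 120.4 normalized CPM in ctrl libraries and at 106, 100.4 and 101 in cko libraries. All cko libraries lay below both ctrl libraries by a small margin, with a log2 fold change of -0.19 (95% interval from -0.36 to -0.02, unadjusted, adjusted p = 0.121 in edgeR). With all 6 columns, the averaged one included, the adjusted p was 0.0290. *Lats2* (ENSMUSG00000021959, chromosome 14, 57689662 to 57758388, minus strand), which is also known as a target gene of YAP, was measured at 17.4 and 17.2 normalized CPM in ctrl and at 16.4, 16.3 and 16.2 in cko libraries. The values of the 5 libraries were nearly equal, and the log2 fold change of -0.09 had an interval from -0.34 to 0.17 (adjusted p = 0.616 in edgeR). In GENCODE M21, 2955 of its 6971 exon bases are shared on the same strand with *Gm49361*, which was listed at 0 in all columns, so that the level of *Lats2* is uncertain. *Lats1* held 86.1% and 87.0% of the summed LATS level per length in ctrl and 85.5% to 86.0% in cko libraries, a share that rests on this uncertain *Lats2* level.

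*Amotl2* and *Ajuba* are both regulators of the pathway. *Amotl2* (ENSMUSG00000032531, chromosome 9, 102716672 to 102733418, plus strand) encodes a member of the angiomotin family, which binds YAP and is induced by it. It was measured at 191 and 127 normalized CPM in ctrl libraries and at 175, 149.9 and 159.6 in cko libraries, so that the ctrl libraries enclosed all cko libraries. The log2 fold change was 0.02 with an interval from -0.36 to 0.40 (adjusted p = 0.943 in edgeR). Its sign was not stable, at 0.34 without ctrl replicate 1 (adjusted p = 0.0445), -0.24 without ctrl replicate 3 (adjusted p = 0.122) and -0.05 without cko replicate 1 (adjusted p = 0.896), where the first 2 fits take their spread from the cko libraries alone. *Ajuba* (ENSMUSG00000022178, chromosome 14, 54567472 to 54577558, minus strand) encodes a LIM domain protein that binds the LATS kinases and limits their activity towards YAP. Ctrl NSCs had 12.2 and 16.7 normalized CPM and cko NSCs 5.14, 2.74 and 3.90. These correspond to 279 and 314 counts in ctrl and to 92, 64 and 85 counts in cko libraries, and the genotypes were well apart. The mean of 3.93 ± 1.20 (SD, n = 3) in cko against 14.45 ± 3.23 (SD, n = 2) in ctrl NSCs gave a log2 fold change of -1.89 with a standard error of 0.27 (edgeR adjusted p = 0.00558), and the fitted level was 27.0% of that in ctrl. *Ajuba* had the largest change of the 9 genes and was called in all 11 alternative fits, with log2 fold changes from -2.13 to -1.64. The other genes of its LIM family on the regulator list, *Limd1* and *Wtip*, were not called.

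**Figure D4:**
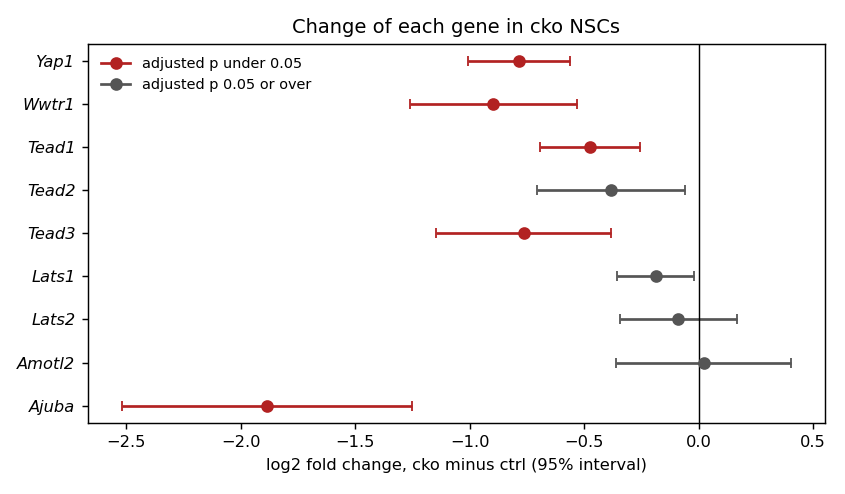
Log2 fold change of each gene in cko against ctrl NSCs with its 95% interval, which is not adjusted for the number of genes. The intervals of *Lats2* and *Amotl2* cross 0, and those of *Tead2* and *Lats1* end just below 0 although their adjusted p missed 0.05.

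The upstream part of the pathway was read from a list of 60 other Hippo regulators, of which 57 could be tested. Of these, 3 were higher and 7 lower at an adjusted p under 0.05 in edgeR. These 10 of 57 stand beside 16.4% of all tested genes called in either direction, and the list median was -0.01. At an unadjusted p under 0.05 the counts were 9 higher and 15 lower, again without a share over all tested genes. DESeq2 called 4 higher and 10 lower, beside 1581 higher and 1703 lower of all 16710 tested genes. The cassette that activates LATS is made of the MST kinases, their scaffold SAV1 and the MOB1 adaptors. Of its 5 genes, 0 were called in edgeR and 0 in DESeq2. At an unadjusted p under 0.05 in edgeR 1 was higher and 1 lower, also without a share over all tested genes. *Stk3*, which encodes MST2, had a log2 fold change of -0.03 (95% interval -0.28 to 0.23) and *Stk4*, which encodes MST1, of 0.20 (0.01 to 0.39, adjusted p = 0.135 in edgeR). *Nf2*, whose product merlin recruits LATS to the membrane, had -0.10 (-0.30 to 0.10, adjusted p = 0.469). None of these 3 intervals reaches a log2 fold change of 0.9 in size, the threshold of the study.

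The 10 calls were spread over several roles, which were assigned after the values were seen. Of 10 MAP4K and TAO kinase genes, which can phosphorylate LATS in place of MST, 3 fell, beside 8.57% of all tested genes. *Mink1* was measured at 126 and 119.6 normalized CPM in ctrl and at 73.0, 76.7 and 86.6 in cko libraries (log2 fold change -0.64, adjusted p = 0.00542 in edgeR). *Tnik* (-0.40, adjusted p = 0.0124) and *Map4k5* (-0.29, adjusted p = 0.0369) had smaller changes. Among 15 membrane and junction genes 3 fell, beside the same 8.57% of all tested genes. One was *Ptpn14*, a phosphatase gene whose product binds YAP and which is itself a YAP target. *Ptpn14* was measured at 69.0 and 117 normalized CPM in ctrl and at 29.6, 33.1 and 35.0 in cko libraries, far apart in spite of the spread between the ctrl libraries (log2 fold change -1.51, adjusted p = 0.00446 in edgeR). The polarity scaffold *Dlg5* (-0.53, adjusted p = 0.00879) and the FERM protein gene *Frmd6* (-0.62, adjusted p = 0.0213) were the other two.

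Of the 6 STRIPAK genes, which encode a phosphatase complex that acts on MST, only *Strn* fell (-0.33, adjusted p = 0.0270 in edgeR). The 3 genes that rose were *Fat4*, an atypical cadherin, *Csnk1e*, casein kinase 1 epsilon, which takes part in marking YAP for degradation, and *Ywhaq*, an adaptor of the family that holds phosphorylated YAP in the cytoplasm. *Fat4* was measured at 69.1 and 69.0 normalized CPM in ctrl and at 109, 96.7 and 96.7 in cko libraries (log2 fold change 0.54, adjusted p = 0.00709). *Csnk1e* had 0.36 (adjusted p = 0.0364) and *Ywhaq* 0.31 (adjusted p = 0.0456), and both lost their calls when any of the cko replicates was left out. Of the regulators named, *Fat4*, *Ptpn14* and *Mink1* were called in all 11 alternative fits, and the adjusted p of the other 7 rose over 0.05 in 2 to 7 of them. Without cko replicate 2 or without cko replicate 3 the counts on the list were 1 higher and 2 lower. Over all tested genes these fits called 317 higher and 416 lower of 16284, and 336 higher and 457 lower of 16306.

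**Figure D5:**
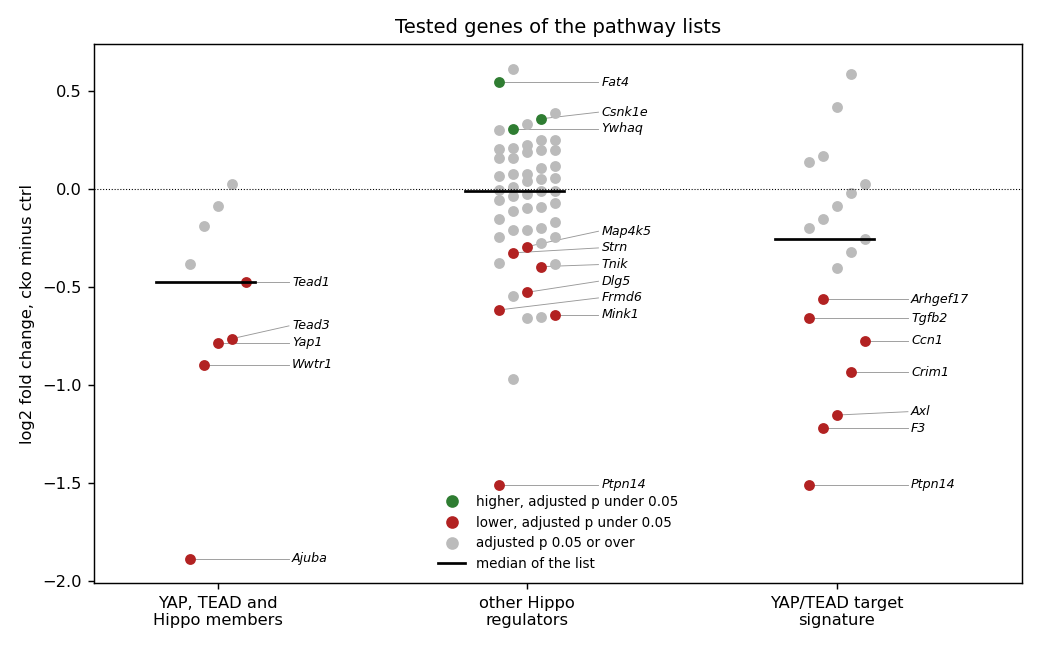
Log2 fold changes of the tested genes among the 9 genes, the 57 tested regulators and the 19 tested genes of the target signature; each point is a gene, horizontal bars are medians, and the genes with an adjusted p under 0.05 are named. *Ptpn14* stands on the last 2 lists.

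The output of YAP and TEAD was read from a signature of 22 target genes that has been used across tumour types, which includes *Ankrd1*, *Amotl2* and *Lats2*. Of its 19 tested genes 7 were lower and 0 were higher at an adjusted p under 0.05 in edgeR, beside 8.57% of all tested genes lower and 7.86% higher. At an unadjusted p under 0.05 the counts were 8 lower and 0 higher, again without a share over all tested genes. DESeq2 called 8 lower and 0 higher, beside 1703 lower and 1581 higher of all 16710 tested genes. The signature's median was -0.26 on the log2 scale, with 14 of 19 values below 0. The 2 signature genes that are among the 9 genes above were not called, so that the 7 calls came from the 17 other tested genes. Without cko replicate 2 or cko replicate 3 the number lower was 4, where 416 of 16284 and 457 of 16306 tested genes were called lower. The signature was derived in tumours, and how it reads YAP activity in NSCs was not tested.

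The 7 targets that fell encode secreted, membrane and signalling proteins. *F3*, the tissue factor that starts coagulation, was measured at 38.1 and 35.0 normalized CPM in ctrl and at 18.8, 12.2 and 16.2 in cko libraries (log2 fold change -1.22, standard error 0.17, adjusted p = 0.0055 in edgeR). *Crim1*, a membrane protein that binds BMPs, was measured at 29.9 and 40.0 against 19.7, 16.7 and 18.4 (-0.94, standard error 0.15, adjusted p = 0.00742). In both genes the cko libraries lay well below the ctrl libraries. *Arhgef17* fell by less (-0.56, adjusted p = 0.00675). These 3 and *Ptpn14* were called in all 11 alternative fits.

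*Ccn1* (formerly *Cyr61*), a matricellular protein and one of the most used readouts of YAP, was measured at 14.6 and 11.1 normalized CPM in ctrl and at 8.55, 6.64 and 7.48 in cko libraries. The log2 fold change was -0.77 (adjusted p = 0.0306 in edgeR), and the adjusted p ranged up to 0.124 when a library was left out. *Axl*, a receptor tyrosine kinase (-1.15, adjusted p = 0.0432), and *Tgfb2*, a TGF-beta ligand (-0.66, adjusted p = 0.0311), lost their calls without ctrl replicate 1, cko replicate 2 or cko replicate 3. *Ccn2* (formerly *Ctgf*), the other common readout, had between 3 and 6 counts in each library, which is too few for a test, so that no difference was detectable at this depth. The 12 tested targets that were not called had log2 fold changes from -0.40 to 0.59.

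Other properties of the libraries moved with the genotype. Total counts were 17883796 to 23335736 per library. The NSC genes *Sox2* (556 to 625 normalized CPM), *Nes* (470 to 1067) and *Pax6* (44.9 to 51.9) were detected in every library. Of 10 NSC genes 3 were higher, *Nes* included, and 1 was lower. The gene called lower was *Slc1a3*, at 1664 and 1896 normalized CPM in ctrl and at 1177, 968 and 942 in cko libraries. Its log2 fold change was -0.79 (adjusted p = 0.00639 in edgeR). The summed level of 9 astrocyte genes was 2447 to 3538 normalized CPM in ctrl and 1395 to 2141 in cko libraries, with 4 of the 9 lower and 0 higher at an adjusted p under 0.05 in edgeR. *Gfap* stood at 1007 and 177 normalized CPM in ctrl and at 297, 86.6 and 121 in cko libraries (log2 fold change -1.82). *Aqp4* stood at 97.4 and 55.2 against 59.7, 27.3 and 27.0 (-1.02), and *Aldh1l1* at 257 and 130.5 against 187, 164 and 164 (-0.18). The ctrl libraries were far apart in these genes, and none of them was called. By direction 7 of the 9 astrocyte genes were lower and 2 higher, beside 50.3% of all tested genes lower. The 4 called lower were *S100b*, *Slc1a2*, *Gja1* and *Aldoc*. *S100b* stood at 19.2 and 19.7 normalized CPM in ctrl and at 5.76, 3.51 and 2.62 in cko libraries. In cko NSCs, library 1 was the highest in 9 of the 9 astrocyte genes, and it was also the highest in 7 of the 9 genes described here, *Yap1* and *Wwtr1* included. It was so in 5 of 10 NSC, 3 of 10 neuronal and 5 of 11 oligodendrocyte lineage genes. On the regulator and target lists it was so in 21 of 59 and 10 of 21 genes with a row. The share over all genes was not taken, so these counts have no background to be read against. In *Lats2* the cko libraries stood at 16.4, 16.3 and 16.2 normalized CPM, so the highest differed little from the others there. The part of the astrocyte genes in these results was not tested. *Sox9* on that list is also an NSC gene. Of 11 oligodendrocyte lineage genes 6 were lower and 2 higher, with sums of 3217 to 3838 in ctrl and 3509 to 3761 in cko libraries, and *Mag* was at 0 in 2 of the 3 cko libraries. Of 8 tested neuronal genes 1 was lower and 2 higher, with sums of 1219 to 1345 and 1338 to 1373. The part of these 2 lists was not tested either. Meningeal and vascular genes, which belong to cells rich in YAP targets, summed to 8.07 to 11.8 normalized CPM in ctrl and 7.21 to 9.27 in cko libraries over 12 genes, with *Cdh5* at 0 throughout. Microglial genes summed to at most 0.799 in any library, with *Cx3cr1*, *Tmem119* and *Itgam* at 0. Ependymal and choroid plexus genes summed to 20.1 to 27.1 in ctrl and 19.6 to 21.5 in cko libraries, with 1 of 2 tested genes lower. *Xist* was lower in every cko library (786 to 893 against 2554 to 2885 normalized CPM) and 4 of 4 Y-linked genes were higher, so that the genotype and the sex makeup of the cultures cannot be told apart in these libraries.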

How the data were processed

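Gene counts of E14.5 NSCs were the only measurement used. Per the methods of the study, low-quality reads were removed with NGSQC and the remainder mapped by HISAT2 to mm10, whereas the labels list GRCm39. The authors deposited raw counts for each Ensembl gene ID. The counting tool, annotation and strand setting are not given in the sources used here, so overlapping genes are uncertain. The column of ctrl replicate 2, the other kind of deposited value, is a rounded mean and was counted in no n. For symbols, positions and exon lengths, GENCODE M21 (GRCm38) held 31836 of the 32493 IDs. The other 657 took 0.181% to 0.299% of the counts.

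The test was the quasi-likelihood test of edgeR 4.0.16 in R 4.3.3, with genotype as the only term, on the 16710 genes kept by filterByExpr, after TMM normalization (factors 0.990 to 1.01). Genes were called at a Benjamini-Hochberg adjusted p under 0.05 over all tested genes. Standard errors were derived from the F statistic of that test, and 95% intervals from them. Values per library are TMM-normalized CPM. The floor of 3 counts corresponds to 0.129 to 0.168 CPM and covers counting error only. As 11 alternatives, the comparison was repeated with DESeq2 1.42.0, with size factors by median of ratios, with 2 other filters, with a replicate block, with all 6 columns and without each of the 5 libraries. The threshold of the study was a further call rule, applied in edgeR and, as an alternative added after seeing the data, in DESeq2. The steps were tested on simulated data.

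The 10 genes and the lists were chosen with earlier results of these data known. The text names those 10 genes, the genes of the regulator and target lists with an adjusted p under 0.05 (at most the 7 of smallest p per direction and list), and *Tead4*, *Stk3*, *Stk4*, *Nf2*, *Ccn1* and *Ccn2*. *Limd1* and *Wtip*, the marker genes named singly and the grouping of the regulators by role were chosen after their values were seen. Seed sites of miR-151 and comparisons of proteins were not analysed here. Figures were drawn with matplotlib 3.10.9.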

Additional observations from a re-analysis of the deposited data

How the results depend on the processing

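Of the 9 genes, 5 were called lower, a count that was 1 at the threshold of the study in edgeR, 2 at that threshold in DESeq2 (added after seeing the data) and ranged from 2 to 6 when a library was left out, while the number called higher ranged from 0 to 1. Over all tested genes, 1314 were higher and 1432 lower. These counts were 2865 and 2794 with all 6 columns, where the averaged column adds no measurement, 399 and 696 at the threshold of the study in edgeR, 412 and 704 at it in DESeq2, and 2237 lower with no filter on low counts. When a library was left out they ranged from 317 to 1812 and from 416 to 2062. Of the other Hippo regulators 3 were higher and 7 lower. The counts were 9 and 16 with all 6 columns, 0 and 1 at the threshold of the study in either tool, 11 lower with no filter, and 1 to 6 higher and 2 to 12 lower when a library was left out. Of the target signature 7 were lower, 4 at the threshold of the study in either tool, with 4 to 7 lower and 0 to 1 higher when a library was left out. *Tead2* was called with all 6 columns (-0.39) and with no filter (-0.38), and *Lats1* with all 6 columns (-0.18). When a library was left out, log2 fold changes ranged from -1.09 to -0.80 for *Wwtr1*, -0.62 to -0.32 for *Tead1*, -0.58 to -0.15 for *Tead2*, -0.97 to -0.53 for *Tead3*, -0.24 to 0.34 for *Amotl2*, -1.44 to 1.51 for *Tead4* and -0.21 to 0.013 for *Nf2*. With a replicate block the regulators called were 1 higher and 4 lower, 7 of the 29 named genes that were tested lost their call (*Csnk1e*, *Ywhaq*, *Tnik*, *Frmd6*, *Strn*, *Map4k5* and *Ccn1*), and the calls of the 9 genes were kept. The log2 fold changes of those 7 under the block were 0.35, 0.26, -0.40, -0.64, -0.34, -0.26 and -0.67, against 0.36, 0.31, -0.40, -0.62, -0.33, -0.29 and -0.77 without it. The embryos were littermates, but no source used here says that a number marks a litter. The deviations of same-numbered libraries from the mean of their genotype correlated at 0.143 and 0.0507. With 2 ctrl libraries the ctrl deviations mirror each other, so these correlations cannot tell whether the numbers mark pairs. For want of a source the numbers were not taken as pairs, and whether litters were shared is not known. The cause of these changes was not tested, beyond the smaller number of libraries where 1 was left out. DESeq2 changed the call of none of the 29 named genes. Fits without a ctrl library take their spread from the cko libraries alone.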
